A study of Mus musculus with 12 samples.

Results

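The genes described here are 10 macrophage genes read in cultures that were set up as embryonic fibroblasts: C1qa, C1qb, C1qc, Lyz2, Mrc1, Cd53, Fcer1g, Csf1r, Tyrobp and F13a1. They were chosen for their signals on these same arrays, so their values are given as a description and no test is read on them. All 10 were matched by gene symbol, each to 1 probe set (a set of array probes summarised to one value), out of 19938 genes with a symbol. All 10 lay above the array median on at least 1 array, the filter that 13044 genes passed, and since they could pass through 1 bright array alone, that count supports nothing.

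The study followed mouse embryonic fibroblasts (MEF) through reprogramming to induced pluripotent stem cells (iPSC), with Mbd3, which encodes a core protein of the chromatin repressor NuRD, intact, reduced or absent. The 12 arrays were hybridised, 1 per genotype and stage. The 3 MEF arrays were WT (Mbd3+/+), flox/- (Mbd3flox/-, a floxed allele over a null one) and -/- (Mbd3-/-) cells. The WT and flox/- cells carried a doxycycline (DOX) inducible OSKM transgene set, for the factors Oct4, Sox2, Klf4 and Myc, and had not been induced, while the label of the -/- cells named no transgene. The 5 DOX arrays were WT cells after 4, 8 and 11 days of DOX and flox/- cells after 4 and 8 days. The 4 pluripotent arrays were WT iPSC, flox/- iPSC, embryonic stem cells (ESC) of the -/- genotype, and WT ESC of the line V6.5; no transgene was named for either ESC. Per the labels, cells were grown in serum replacement medium with 2i/LIF on irradiated DR4 feeder MEF and harvested by trypsin, so feeder RNA may be in any sample, and its part was not tested. Nothing labels arrays of one state as separate cultures of one condition; they differ in genotype or day, and p-values below measure the spread among them. One label conflicted: the WT day 8 array had a source name giving 4 days and a title and stage giving 8, and it is called WT day 8 here. That array and WT ESC had been published in an earlier series.

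Macrophages are phagocytes that settle in nearly every tissue of the embryo, and a culture made from whole embryonic tissue can carry them along. Their survival depends on the receptor tyrosine kinase CSF1R, whose ligands CSF1 and IL34 are made by other cells, fibroblasts among them. Their lineage is set up by the transcription factor PU.1, encoded by Spi1. Tissue macrophages are the main source of the complement starter C1q, assembled from 3 chains encoded by neighbouring genes, and they read their surroundings through receptors that signal by small adaptor proteins such as TYROBP (DAP12) and FCER1G.

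Promoter sequences are shown first, because the genes moved together across the arrays and because PU.1, through purine-rich GAGGAA elements, acts on many myeloid promoters that lack a TATA box. RefSeq windows on GRCm38.p6, from 250 bases before to 50 after the start, were found for 7 of the 10 genes (8 windows), and those of 4 are printed, 5′ to 3′ on the gene's strand, with each GAGGAA match on either strand (TTCCTC when it lies on the other) in capitals. They are the Mrc1 window (chr2:14229164-14229463, plus strand), the Cd53 window (chr3:106790100-106790399, minus strand), the C1qb window (chr4:136886151-136886450, minus strand) and the C1qc window (chr4:136892865-136893164, minus strand).
Mrc1: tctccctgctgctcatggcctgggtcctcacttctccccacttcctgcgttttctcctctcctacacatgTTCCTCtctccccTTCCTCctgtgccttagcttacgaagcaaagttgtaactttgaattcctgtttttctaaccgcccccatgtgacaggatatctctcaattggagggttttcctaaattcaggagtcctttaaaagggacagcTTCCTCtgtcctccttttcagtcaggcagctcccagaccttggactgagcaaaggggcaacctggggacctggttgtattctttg
Cd53: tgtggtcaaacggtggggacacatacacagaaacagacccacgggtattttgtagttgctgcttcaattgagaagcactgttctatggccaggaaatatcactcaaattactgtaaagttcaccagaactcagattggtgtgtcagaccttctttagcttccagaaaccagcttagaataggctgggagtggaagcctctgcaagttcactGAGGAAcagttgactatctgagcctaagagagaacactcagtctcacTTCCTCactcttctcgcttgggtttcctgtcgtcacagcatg
C1qb: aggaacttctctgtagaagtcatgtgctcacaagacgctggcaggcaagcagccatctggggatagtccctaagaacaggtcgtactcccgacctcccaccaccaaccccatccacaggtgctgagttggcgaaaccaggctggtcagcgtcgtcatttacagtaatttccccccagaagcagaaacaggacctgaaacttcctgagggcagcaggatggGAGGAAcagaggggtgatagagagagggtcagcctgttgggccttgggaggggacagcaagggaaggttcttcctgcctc
C1qc: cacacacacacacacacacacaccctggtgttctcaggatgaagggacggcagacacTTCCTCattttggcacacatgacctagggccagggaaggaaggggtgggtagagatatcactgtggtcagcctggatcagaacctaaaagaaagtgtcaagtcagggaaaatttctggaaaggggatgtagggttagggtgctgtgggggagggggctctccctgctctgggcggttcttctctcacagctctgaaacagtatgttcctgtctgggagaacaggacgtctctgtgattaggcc
Counted from the start, the first base of a match lay at -180, -167 and -35 in Mrc1, at -39 and 9 in Cd53, at -30 in C1qb and at -193 in C1qc. F13a1 also held matches, at -66 and 18 in one window and at 15 in the other, and the Fcer1g and Lyz2 windows held none. GAGGAA was therefore in 5 of the 7 genes, and in 28.3% of the 32851 promoter windows of the same length. The C/EBP-type motif TTNNGNAA was found in C1qc, Cd53, F13a1, Lyz2 and Mrc1, 5 of 7, against 40.7% of all windows. Neither the AP-1-type motif TGANTCA, present in 7.81% of all windows, nor TATAAA, present in 13.6%, occurred in any of the 7. All 4 motifs were searched on both strands. The counts for the 7 are by gene, F13a1 having 2 windows, while the shares are by window, so they differ in unit. These are counts of letters, and no binding was measured.

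The arrays as a whole set the scale. Signals are log2 values after quantile normalization, so that every array had a lower quartile of 4.68, a median of 6.31 and an upper quartile of 8.7, and a difference of 1 is 2-fold. A fold against a signal near the lower quartile is limited by the background of the array. Differences are given within a gene, since probe sets of different genes have no common scale. Among the MEF and among the pluripotent arrays Mbd3, the targeted gene, was lowest in the -/- cells (the DOX state had no -/- array), at 8.15 in -/- MEF against 9.2 in WT MEF and at 6.73 in -/- ESC against 9.31 in WT ESC; which part of the gene the deletion removes and where the probes lie was not analysed here. The fibroblast list (18 genes such as Postn, Thy1 and Pdgfra) averaged 11.17 to 11.4 on the 3 MEF arrays, and the pluripotency list (12 genes such as Nanog and Esrrb) averaged 11.31 to 11.41 on the 4 pluripotent arrays, so both labels were met by their markers.

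The macrophage genes were bright in WT MEF, less so in flox/- MEF, and dim in -/- MEF. Their mean signal was 10.7 in WT MEF, 9.44 in flox/- MEF and 6.92 in -/- MEF. It was 9.04 in WT cells after 4 days of DOX, then 5.14 at day 8 and 6.33 at day 11, and in flox/- cells 6.15 at day 4 and 5.08 at day 8. On the pluripotent arrays it was 6.61 in WT iPSC, 5.78 in -/- ESC, 5.2 in WT ESC and 5.1 in flox/- iPSC. All 10 genes exceeded the array median in WT MEF, flox/- MEF and WT day 4, 7 did so in -/- MEF, 4 in WT iPSC, 3 in WT day 11 and 2 each in flox/- day 4 and -/- ESC. None did so in WT day 8, flox/- day 8, flox/- iPSC or WT ESC. In RNA from a whole culture, fewer cells of a type and less RNA per cell cannot be told apart.

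**Figure D1:**
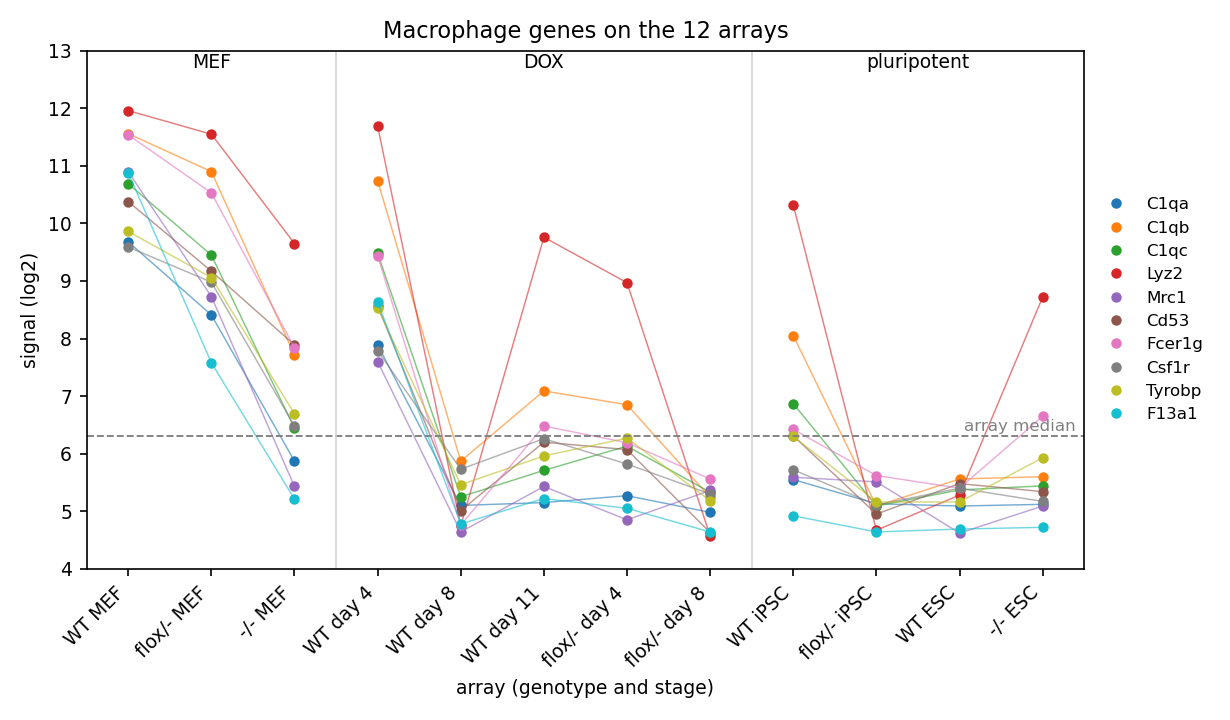
Log2 signal (vertical axis) of the 10 macrophage genes on each of the 12 arrays (horizontal axis, grouped by state), 1 point per gene and array, with the array median dashed at 6.31; lines join points of a gene within a state only to guide the eye. The 10 genes step down from WT MEF to -/- MEF, lie high again in WT day 4, and are mostly near or under the median elsewhere, with exceptions such as Lyz2 in WT iPSC, at 10.32.

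The first group by role is the secreted products. C1qa encodes the A chain of C1q, the recognition molecule of the classical complement pathway (chr4:136895916-136898844, GRCm38.p6). Its signal was 9.68 in WT MEF, 8.41 in flox/- MEF and 5.87 in -/- MEF. In the DOX state it was 7.89, 5.1 and 5.15 in WT cells at days 4, 8 and 11, and 5.27 and 4.98 in flox/- cells at days 4 and 8. The pluripotent arrays read 5.55 in WT iPSC, 5.13 in flox/- iPSC, 5.12 in -/- ESC and 5.09 in WT ESC. Every MEF array was above every pluripotent array for C1qa, but WT day 4 stood above -/- MEF, so the MEF and DOX groups overlapped.

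C1qb, for the B chain (chr4:136880126-136886200), read 11.56, 10.9 and 7.71 in WT, flox/- and -/- MEF. Under DOX it was still 10.74 in WT day 4, and 5.87, 7.09, 6.85 and 5.24 in WT day 8, WT day 11, flox/- day 4 and flox/- day 8. WT iPSC, flox/- iPSC, -/- ESC and WT ESC read 8.05, 5.09, 5.6 and 5.56. WT iPSC lay above -/- MEF for this gene, so that no pair of states was free of overlap, and the range from flox/- iPSC to WT MEF was 88.6-fold.

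C1qc encodes the C chain and lies between the other two (chr4:136889801-136892936). It read 10.69, 9.45 and 6.44 in WT, flox/- and -/- MEF. The DOX arrays were at 9.48, 5.25 and 5.71 in WT cells at days 4, 8 and 11 and at 6.13 and 5.33 in flox/- cells at days 4 and 8. WT iPSC, flox/- iPSC, -/- ESC and WT ESC read 6.87, 5.09, 5.44 and 5.37. As with C1qb, WT iPSC exceeded -/- MEF. The 3 chains, whose genes are neighbours on chromosome 4, thus shared the same order of WT MEF, flox/- MEF and -/- MEF, and the same high array among the DOX and among the pluripotent ones.

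Lyz2 encodes the lysozyme of macrophages and granulocytes, which cuts bacterial cell walls (chr10:117277541-117282272). It read 11.96, 11.55 and 9.65 in WT, flox/- and -/- MEF, and 11.69, 4.75, 9.76, 8.97 and 4.57 in WT day 4, WT day 8, WT day 11, flox/- day 4 and flox/- day 8. In WT iPSC, flox/- iPSC, -/- ESC and WT ESC it read 10.32, 4.67, 8.72 and 5.28. Of the 10 genes it differed least between the MEF arrays. It was above the array median on 8 arrays, and C1qb and Fcer1g on 7 each. Its range of 168-fold from WT MEF to flox/- day 8 was the widest of the 10.

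F13a1, for the catalytic A chain of coagulation factor XIII, a cross-linking enzyme that resident macrophages hold inside the cell, spread most among the MEF arrays. Its 3 MEF signals were 10.88 in WT, 7.58 in flox/- and 5.21 in -/- cells. It read 8.64 in WT day 4 and 4.78, 5.22, 5.05 and 4.64 in WT day 8, WT day 11, flox/- day 4 and flox/- day 8, and 4.92, 4.64, 4.72 and 4.69 in WT iPSC, flox/- iPSC, -/- ESC and WT ESC. In -/- MEF it was no higher than in WT day 11, and the SD over the 3 MEF arrays was 2.85 around a mean of 7.89.

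The receptors come next. Csf1r encodes the receptor for CSF1 and IL34 on which most tissue macrophages depend. Its signal was 9.59 in WT MEF, 8.98 in flox/- MEF and 6.48 in -/- MEF. Under DOX it was 7.79, 5.73 and 6.26 in WT cells at days 4, 8 and 11 and 5.82 and 5.3 in flox/- cells at days 4 and 8, and the pluripotent arrays read 5.72, 5.11, 5.17 and 5.4 in WT iPSC, flox/- iPSC, -/- ESC and WT ESC. Every MEF array lay above every pluripotent one, and WT day 4 lay above -/- MEF.

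Mrc1 encodes the mannose receptor CD206, an endocytic lectin of resident macrophages (chr2:14229414-14332023). It read 10.9, 8.73 and 5.43 in WT, flox/- and -/- MEF, then 7.6, 4.64, 5.43, 4.85 and 5.36 in WT day 4, WT day 8, WT day 11, flox/- day 4 and flox/- day 8. WT iPSC, flox/- iPSC, -/- ESC and WT ESC read 5.59, 5.51, 5.09 and 4.62. The -/- MEF array was within the range of the pluripotent arrays for Mrc1, and 3 of the 12 arrays exceeded the array median.

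The adaptors followed the same order. Tyrobp (chr7:30413782-30417582) encodes the signalling partner of TREM2 and related receptors, and read 9.86, 9.06 and 6.69 in WT, flox/- and -/- MEF. It was 8.53, 5.46 and 5.96 in WT cells at days 4, 8 and 11, 6.27 and 5.18 in flox/- cells at days 4 and 8, and 6.3, 5.16, 5.93 and 5.16 in WT iPSC, flox/- iPSC, -/- ESC and WT ESC. Fcer1g (chr1:171229572-171234349), the gamma chain shared by Fc receptors, read 11.54, 10.53 and 7.84 in the MEF arrays in that order. Both adaptors kept every MEF array above every pluripotent array. For Fcer1g the DOX values were 9.44, 4.76, 6.48, 6.19 and 5.56 in WT day 4, WT day 8, WT day 11, flox/- day 4 and flox/- day 8, and the pluripotent values 6.42, 5.62, 6.65 and 5.4 in WT iPSC, flox/- iPSC, -/- ESC and WT ESC. It was the 1 gene of the 10 that was higher in -/- ESC than in WT iPSC.

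Cd53 encodes a tetraspanin found on nearly all leukocytes and therefore marks blood cells more broadly than macrophages (chr3:106758861-106790149). It read 10.38, 9.17 and 7.89 in WT, flox/- and -/- MEF. WT day 4, WT day 8, WT day 11, flox/- day 4 and flox/- day 8 read 8.57, 5.01, 6.2, 6.07 and 4.63, and WT iPSC, flox/- iPSC, -/- ESC and WT ESC read 6.31, 4.95, 5.34 and 5.48. Its MEF arrays all lay above its pluripotent arrays, as they did for C1qa, F13a1, Csf1r, Tyrobp and Fcer1g, 6 of the 10 genes in all, where 30.8% of all genes showed this. No gene of the 10 had every MEF array above every DOX array (15.2% of all genes), because WT day 4 exceeded -/- MEF in each.

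Set against each other, the 3 MEF arrays differed in all 10 genes. Between WT MEF and -/- MEF, all 10 were at least 2-fold lower in -/- MEF, by a median of -3.76 and from -2.31 in Lyz2 to -5.67 in F13a1, where 3.96% of the 13044 genes were at least 2-fold lower and the median of all genes was 0.04. Between WT MEF and flox/- MEF, 6 were at least 2-fold lower in flox/- MEF (1.79% of all genes), with a median of -1.11 and a span from -0.41 in Lyz2 to -3.3 in F13a1. From flox/- MEF to -/- MEF all 10 were again at least 2-fold lower, by a median of -2.52, where 1.84% of all genes were. The order WT MEF over flox/- MEF over -/- MEF held for 10 of 10 genes and for 21.9% of all genes. These genes were chosen with such differences in view, so nothing is read from the shares, and with 1 array a genotype the genotype and the single culture cannot be told apart.

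**Figure D2:**
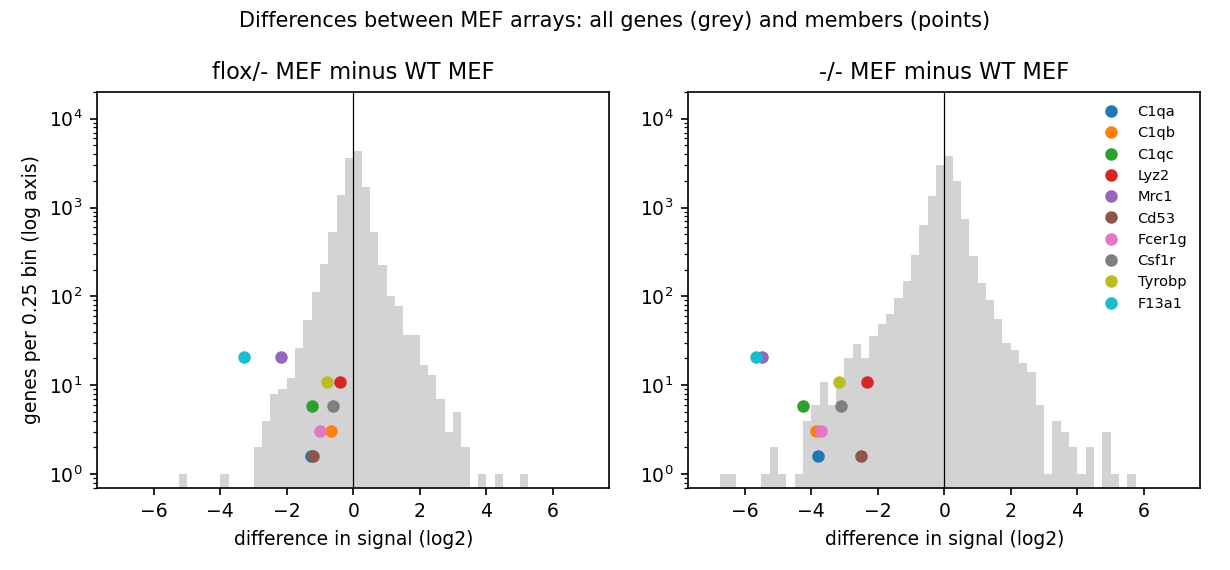
Differences in log2 signal between MEF arrays (horizontal axis), flox/- minus WT on the left and -/- minus WT on the right; grey bars count all other genes per bin of 0.25 on a log axis, and points mark the 10 macrophage genes, whose heights carry no value. All 10 points lie left of 0 in both panels, with medians of -1.11 and -3.76.

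Within a genotype, the genes were lower after DOX than in the MEF array of that genotype. In WT cells the median difference from WT MEF was -1.8 at day 4, -5.56 at day 8, -4.5 at day 11 and -3.97 in iPSC. The number of genes at least 2-fold lower was 8 of 10 at day 4 (6.94% of all genes) and 10 of 10 at day 8 (12.7%) and in iPSC (18.4%). The genes outside the 2-fold limit at day 4 were Lyz2, at -0.27, and C1qb, at -0.82. Day 8 was below day 11 in all 10 genes, and that array is the one with the conflicting label and the earlier origin.

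In flox/- cells the signals were already low at day 4. The median difference from flox/- MEF was -3.15 at day 4, -4.0 at day 8 and -4.06 in iPSC, and all 10 genes were at least 2-fold lower each time (15.1%, 20.9% and 19.5% of all genes). At day 4, flox/- cells read below WT cells in all 10 genes, by a median of -2.74 and at least 2-fold in each (8.04% of all genes). At day 8 the median difference of flox/- from WT was -0.16 and no gene was 2-fold lower (18.7% of all genes), both arrays being at the bottom of the genes' ranges.

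Among the pluripotent arrays, WT iPSC was the highest for 9 of the 10 genes (20.5% of all genes had their highest pluripotent value there). WT iPSC exceeded flox/- iPSC in all 10, with a median of -0.97 for flox/- minus WT and 5 genes at least 2-fold lower (3.2% of all genes), Lyz2 by -5.66. Against WT ESC, WT iPSC was at least 2-fold higher in 5 genes (2.03% of all genes), with a median of 1.0 and a largest difference of 5.04 in Lyz2. The -/- ESC and WT ESC arrays differed by a median of 0.05, although 2 genes were at least 2-fold higher in -/- ESC (3.88% of all genes), Lyz2 by 3.44 and Fcer1g by 1.25.

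Over the states, the means of the 10 genes were highest on the MEF arrays, with a wide spread among them. C1qb, for example, averaged 10.06 ± 2.06 (SD, n = 3) in MEF, 7.16 ± 2.14 (SD, n = 5) under DOX and 6.07 ± 1.34 (SD, n = 4) on the pluripotent arrays. Csf1r averaged 8.35 ± 1.65 (SD, n = 3), 6.18 ± 0.97 (SD, n = 5) and 5.35 ± 0.28 (SD, n = 4) in the same order. The pluripotent minus MEF difference ran from -2.76 in C1qa to -3.98 in C1qb with a median of -3.16. The DOX minus MEF difference ran from -2.17 in Csf1r to -3.48 in Fcer1g with a median of -2.63, and both contrasts use the same 3 MEF arrays. The count of genes below the threshold of limma's moderated test (adjusted p of 0.05 over all 13044 genes) was 10 of 10 lower for pluripotent minus MEF, where 29.9% of all genes were lower, 30.1% higher and 60.0% called in all. It was 0 of 10 for DOX minus MEF, where 7.67% were lower, 5.88% higher and 13.6% called in all (1768 genes, and 4538 at an unadjusted p under 0.05). Nothing is read from these counts, since the contrasts chose the genes, and single arrays moved them. The pluripotent minus MEF count was 4 without flox/- MEF, 6 without WT MEF, flox/- iPSC or WT ESC, 8 without WT iPSC or -/- ESC and 9 without -/- MEF, and it was 7 with no filter on dim genes. Without WT day 4, 6 of the 10 passed in DOX minus MEF and the median was -3.27. With genotype as a block beside state, 2 passed and the median was -3.8. No DOX array was -/-, so that fit compared WT and flox/- cells only, and -/- MEF added nothing to the difference. The median was -3.68 when -/- MEF was left out without a block. Leaving out WT MEF brought the pluripotent minus MEF median to -2.32, and leaving out -/- MEF to -4.43.

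DOX and pluripotent arrays overlapped for every one of the 10 genes, and the median DOX minus pluripotent difference was 0.67. Without WT day 4 it was -0.06, so its sign rested on that array. In that contrast limma called 1 of all 13044 genes, 0.00767%, and none of the 10 (2052 of all genes had an unadjusted p under 0.05). For flox/- minus WT, over the 4 stages that both genotypes share and with stage as a block, the median of the 10 genes was -1.24, all 10 were below 0, and limma called none of all 13044 genes (0.0%; 852 genes at an unadjusted p under 0.05). Leaving out day 8, where the WT array has the conflicting label, gave -1.69.

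Genes that were not among the 10 but are known from the same cell type were tested. Their counts for pluripotent minus MEF stand beside 29.9% of all genes lower and 30.1% higher. The lists were chosen with earlier results of these data known, and the arrays are those on which the 10 were chosen. The counts and p-values of the lists are therefore no independent support for the pattern of the 10. A list gene entered the test if it exceeded the array median on 1 array or more. Some genes did so only on MEF arrays, where a fall is partly built in. The count without the filter is therefore given for each list in which some genes failed it. Over all 19938 genes, 4166 were lower and 4109 higher without the filter. Of 28 genes for other macrophage surface receptors, 17 passed the filter, 3 of them on MEF arrays only (Itgam, Cd14 and Pilra) and 13 on no pluripotent array. Limma called 13 of the 17 lower on the pluripotent than on the MEF arrays and none higher, with a median of -2.34 beside 0.03 for all genes. With no filter, 11 of 28 were lower and none higher, with a median of -1.15. Adgre1, which encodes an adhesion receptor that is the standard surface marker of mouse macrophages, averaged 4.84 ± 0.36 (SD, n = 4) on the pluripotent and 8.2 ± 1.28 (SD, n = 3) on the MEF arrays, a fall of 10.3-fold (log2 difference -3.36, SE 0.55, limma adjusted p = 0.00143). The scavenger receptor genes Msr1 (log2 difference -3.33, limma adjusted p = 0.00276) and Stab1 (-3.19, limma adjusted p = 0.0115) and the LPS co-receptor gene Cd14 (-2.99, limma adjusted p = 0.000881) fell as well. Itgam, for the integrin chain CD11b, fell by 5.05-fold (limma adjusted p = 0.0111). Cd68, for a lysosomal glycoprotein widely used as a macrophage marker, did not pass, with 9.63 ± 1.6 (SD, n = 3) on the MEF and 9.72 ± 0.66 (SD, n = 4) on the pluripotent arrays (limma adjusted p = 0.921). Without flox/- MEF the count of macrophage surface receptors called was 8.

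Adgre1 traced the same array order as the 10 genes. It read 9.33, 8.47 and 6.8 in WT, flox/- and -/- MEF and 8.18, 4.6, 5.4, 5.2 and 4.47 in WT day 4, WT day 8, WT day 11, flox/- day 4 and flox/- day 8. WT iPSC, flox/- iPSC, -/- ESC and WT ESC read 5.38, 4.57, 4.68 and 4.73. Cd68 took another course, with 11.06, 9.93 and 7.9 in the MEF arrays and 8.73 to 9.91 in the DOX and 9.09 to 10.62 in the pluripotent arrays, so that -/- MEF had its lowest value of all 12.

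The lineage factors were mixed. Of 13 myeloid transcription factors 10 passed the filter, 5 of them on MEF arrays only (Irf8, Irf5, Cebpa, Nr1h3 and Tfec). From MEF to pluripotent arrays 8 of the 10 fell and 1 rose, as did 8 and 1 of the 13 with no filter. Spi1, for PU.1, fell by 3.0-fold, from 7.36 ± 1.19 (SD, n = 3) to 5.78 ± 0.36 (SD, n = 4) (limma adjusted p = 0.0293). Its limma adjusted p was 0.0862 without WT MEF, 0.095 without flox/- MEF, and 0.0536 to 0.0699 without WT iPSC, flox/- iPSC or -/- ESC. Maf fell by 9.39-fold (limma adjusted p = 2.57e-05) and Runx1 by 8.98-fold (limma adjusted p = 9.55e-05), and both factors are also used outside the blood. Spic, which red pulp macrophages use and which is also known from pluripotent cells, rose by 9.77-fold (limma adjusted p = 0.000111).

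Among genes for the phagocyte oxidase, which makes superoxide, 4 of 5 fell and none rose: Cybb by 6.14-fold (limma adjusted p = 0.0107), Ncf1 by 3.06-fold (limma adjusted p = 0.00777), Cyba by 3.01-fold (limma adjusted p = 0.01) and Ncf4 by 2.08-fold (limma adjusted p = 0.0279). Ncf4 exceeded the array median on WT MEF alone, at 6.51, and so was tested only through that array. The Ncf4 call was lost without flox/- MEF, WT iPSC, flox/- iPSC or WT ESC (limma adjusted p of 0.0506 to 0.0586). Of 15 adaptor partners (receptors and kinases that work with TYROBP and FCER1G), 9 passed the filter, 4 of them on MEF arrays only (Fcgr1, Clec4e, Clec4d and Clec5a). Of the 9, 6 fell and none rose, and with no filter 7 of 15 fell. They included Fcgr3, an activating Fc receptor gene (log2 difference -2.1, limma adjusted p = 0.0282), and Trem2, a lipid-sensing receptor gene (-1.46, limma adjusted p = 0.0312). Syk, for the kinase that both adaptors recruit, did not pass, at 7.2 ± 0.63 (SD, n = 3) in MEF and 7.87 ± 0.53 (SD, n = 4) on the pluripotent arrays (limma adjusted p = 0.149). It passed as higher without WT MEF (log2 difference 1.03, limma adjusted p = 0.0417) and without -/- ESC (0.93, limma adjusted p = 0.0434). The adaptor partners called lower numbered 1 without flox/- MEF, 2 without WT MEF, flox/- iPSC, -/- ESC, WT ESC or the arrays of the earlier series, and 4 without WT iPSC, so that count moved with single arrays. Trem2 did not pass without WT MEF, flox/- MEF, flox/- iPSC, -/- ESC or WT ESC (limma adjusted p of 0.0568 to 0.103), nor did Fcgr3 (0.0604 to 0.0863).

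Of 24 pan-leukocyte genes 19 passed the filter, 5 of them on MEF arrays only (Ptprc, Coro1a, Vav1, Dock2 and Cd52). Of the 19, 11 fell and 2 rose, and with no filter 10 of 24 fell and 1 rose. Ptprc, for CD45, read 7.84, 7.04 and 5.21 in WT, flox/- and -/- MEF, 6.26 in WT day 4 and 4.8 to 5.13 on the 8 remaining arrays. Its fall of 3.32-fold from MEF to pluripotent arrays (limma adjusted p = 0.0262) did not pass without WT MEF (limma adjusted p = 0.0699), without flox/- MEF (0.0884) or without any one of the pluripotent arrays (0.0513 to 0.0551). Inpp5d, for a lipid phosphatase, and Was, for an actin regulator, rose (9.65-fold, limma adjusted p = 0.000561, and 1.45-fold, limma adjusted p = 0.0438). The pan-leukocyte list had 4 genes called lower without flox/- MEF, 6 without WT MEF and 7 without WT iPSC. Its count called higher was 4 without WT MEF or -/- ESC and 1 without any other single array.

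The partners of the secreted products divided. Of 13 complement genes 9 passed the filter, C5ar1 on MEF arrays only; 5 of the 9 fell and 1 rose, where 29.9% of all genes were lower and 30.1% higher, and with no filter 6 of 13 fell and 1 rose. C3ar1 and C5ar1, for the anaphylatoxin receptors of myeloid cells, fell by 16.1-fold (limma adjusted p = 0.00721) and 9.69-fold (limma adjusted p = 0.00124). C1s1, for a protease that joins C1q in the C1 complex and is made by fibroblasts and liver, fell by 4.03-fold (limma adjusted p = 0.00501), but was highest in flox/- MEF, at 8.66, and lower in WT MEF, at 6.86, than in -/- MEF, at 7.53. C1qbp, for a mitochondrial protein that binds C1q, rose by 2.11-fold (limma adjusted p = 0.000961). C1ra and F13b, the partner of F13a1 in plasma, did not exceed the array median on any array and were not tested, and Lyz1, the neighbouring lysozyme gene, read 5.33 to 6.62 over the 12 arrays (limma adjusted p = 0.166 for pluripotent minus MEF). Lyz1 and Lyz2 are near copies, and probes shared by both would mix their signals; which probes are shared was not analysed here.

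The ligands of CSF1R took another order over the MEF arrays than their receptor. Csf1 was 11.21 in -/- MEF and 10.04 in flox/- MEF, with WT MEF just under the latter, so its highest value was on the MEF array where Csf1r was lowest. It fell from MEF to pluripotent arrays by 7.09-fold (limma adjusted p = 0.00872). Il34 read 5.9 to 6.54 on the MEF, 5.89 to 8.88 on the DOX and 5.97 to 7.43 on the pluripotent arrays, and its difference of 0.68 did not pass (limma adjusted p = 0.14).

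Of 14 lysosomal genes, all of which passed the filter, 13 fell, with a median of -1.25 (29.9% of all genes were lower). Of 14 macrophage cytokine genes 10 passed it, 4 of them on MEF arrays only (Tnf, Il6, Ccl12 and Pf4), and 8 of the 10 fell; with no filter 7 of 14 did. Lipa (6.28-fold, limma adjusted p = 8.24e-05) and Gpnmb (4.6-fold, limma adjusted p = 0.00599) led the first, and Igf1 (13.4-fold, limma adjusted p = 8.41e-05), Ccl3 (10.2-fold, limma adjusted p = 0.0136) and Ccl9 (8.7-fold, limma adjusted p = 0.0068) the second. Apoe, a lipid carrier gene that many cells use, rose by 2.53-fold (limma adjusted p = 0.0474), a call lost without any single array other than WT MEF or -/- ESC. The count of macrophage cytokine genes that fell was 5 without flox/- MEF. Of 10 coagulation partners 6 passed the filter, each on a pluripotent array too, and 4 fell, with or without the filter, among them Plau and Thbd (16.7-fold and 14.1-fold, limma adjusted p = 0.000178 and 0.000418). Lysosomal enzymes, Igf1 and Plau are also made by fibroblasts.

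DOX minus MEF, which again uses the MEF arrays, had 7.67% of all genes lower and 13.6% called, against 60.0% for pluripotent minus MEF. Limma called 3 of 17 macrophage surface receptors lower (Msr1, Pilra and Cd14), 3 of 10 transcription factors (Maf, Irf5 and Cebpa), 2 of 19 pan-leukocyte genes (Arhgdib and Lcp1), none of 5 oxidase genes and none of 9 adaptor partners. With no filter on dim genes the counts were 2 of 28, 3 of 13, 0 of 24, 0 of 5 and 1 of 15, where 945 of 19938 genes were lower. With genotype as a block beside state they were 7 of 17, 4 of 10, 7 of 19, 1 of 5 and 2 of 9. The count over all genes was then 321 lower and 187 higher. As no DOX array was -/-, the fit with that block used only WT and flox/- cells for this difference, without -/- MEF. Adgre1 averaged 5.57 ± 1.51 (SD, n = 5) on the DOX arrays and did not pass (log2 difference -2.63, SE 0.92, limma adjusted p = 0.0857), and passed without WT day 4 (limma adjusted p = 0.0134). Spi1 (limma adjusted p = 0.11), Ptprc (0.124) and Trem2 (0.221) did not pass; with the genotype block Ptprc did (limma adjusted p = 0.0441), as did Itgam (0.029), and Arhgdib (0.0671) and Cebpa (0.0727) no longer did. Without WT day 4, 7 macrophage surface receptors and 5 pan-leukocyte genes were called, and without flox/- MEF none of either list and none of the transcription factors. The counts were 1 and 0 without WT MEF, WT day 11 or flox/- day 4, 2 and 1 without flox/- day 8, and 6 and 6 without -/- MEF. Csf1 fell by 6.88-fold (limma adjusted p = 0.0431), a call lost without any one of the MEF arrays (limma adjusted p of 0.108 to 0.139). It was also lost without WT day 11 (limma adjusted p = 0.055), flox/- day 4 (0.0908) or flox/- day 8 (0.069), and with the genotype block (0.137).

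Markers of other cell types were given the same reading. Of 15 granulocyte and mast cell genes 2 exceeded the array median anywhere, Gata2, which fell 2.8-fold, and Kit, which rose 34.3-fold and is also a gene of pluripotent cells. S100a8, S100a9, Mpo, Elane, Cpa3 and Ms4a2 were above the array median on no array. The dendritic markers Flt3 and Cd209a and the lymphocyte markers Cd3d and Cd79a were likewise above it on none. The same held for Alas2 and Gp9 of red cells and platelets, Calcr and Ocstamp of osteoclasts and Cdh5, Kdr and Cldn5 of endothelium. Other markers of these cell types did exceed it. The osteoclast marker Acp5 read 7.1 to 7.29 on the MEF arrays and was above the median on every array. In WT MEF the dendritic marker Zbtb46 read 6.52 and the megakaryocyte marker Itga2b 6.35. On the pluripotent arrays the lymphocyte marker Cd3e read 6.65 to 7.34 and the endothelial marker Pecam1 8.93 to 9.98. Both were under the median on the MEF arrays. Of 10 erythroid and megakaryocyte genes 4 passed the filter, and of these Ppbp and Pf4 fell (limma adjusted p = 0.0318 and 0.0128), although Ppbp did not without flox/- MEF (0.0623), -/- MEF, WT iPSC, flox/- iPSC or -/- ESC (0.0712 to 0.0954), nor with the genotype block (0.0609). Both are best known from platelets, and Pf4 also from embryonic macrophages; the list averaged 6.72 to 7.32 on the MEF, 5.43 to 5.85 on the DOX and 5.38 to 6.28 on the pluripotent arrays. Of 9 osteoclast genes 6 passed the filter, 4 fell (Ctsk, Nfatc1, Tnfrsf11a and Mmp9) and none rose, and the list averaged 6.71 to 7.0, 5.94 to 6.27 and 5.94 to 6.32 in the same order of states. Osteoclasts share their lineage with macrophages. Of 12 endothelial genes 7 passed, 2 fell (Flt1 and Erg) and 3 rose (Egfl7, Tek and Pecam1), and the list averaged 6.51 to 6.59, 6.33 to 7.38 and 6.72 to 6.93. Of 13 lymphocyte genes 3 passed and 2 rose (Cd79b and Cd3e), and of 11 dendritic and class II genes 2 passed and 1 rose (H2-Eb1). Erg, Mmp9, Tnfrsf11a, Itga2b and Pf4 passed the filter on MEF arrays only, where a fall is partly built in. Beside the filtered counts stand the 29.9% of all genes lower and 30.1% higher. With no filter, 1 of 10 erythroid and megakaryocyte genes, 4 of 9 osteoclast genes and 3 of 12 endothelial genes were lower. So were 2 of 15 granulocyte and mast cell genes, but no lymphocyte, dendritic or class II gene. Higher were 3 endothelial, 2 lymphocyte, 1 dendritic and class II and 1 granulocyte and mast cell gene. The part of these cell types in the macrophage gene values was not tested. Aif1, a macrophage marker gene, and the resident macrophage genes Cd163 and Lyve1 were also above the median on no array, so not every macrophage marker was seen. Laptm5, a pan-leukocyte gene also taken as a macrophage marker, took another course than the 10 genes. It read 10.85, 10.37 and 7.87 in WT, flox/- and -/- MEF, 9.38 to 11.51 on the DOX and 10.84 to 12.04 on the pluripotent arrays. Its within-state correlation with the 10 genes was 0.43.

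The fibroblast list averaged 11.17 in WT, 11.4 in flox/- and 11.32 in -/- MEF. Its single genes moved both ways over those arrays: Thy1 read 11.34, 12.16 and 12.56, Twist2 9.75, 11.07 and 11.1, and Col1a2 12.76, 12.3 and 12.02 in that order. The list averaged 10.49, 8.26, 9.65, 8.87 and 6.87 in WT day 4, WT day 8, WT day 11, flox/- day 4 and flox/- day 8, and 9.09, 7.05, 7.99 and 8.52 in WT iPSC, flox/- iPSC, -/- ESC and WT ESC. The DOX array and the iPSC array with the higher macrophage gene signal, WT day 4 and WT iPSC, thus also had the highest fibroblast signal of their states. From MEF to pluripotent arrays 17 of 18 fibroblast genes fell, with a median of -3.63. The pluripotency list averaged 6.62, 6.77 and 10.68 in WT cells at days 4, 8 and 11, and 7.44 and 11.45 in flox/- cells at days 4 and 8, so the DOX arrays stood at different points by these markers; the part of each in the macrophage gene values was not tested.

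**Figure D3:**
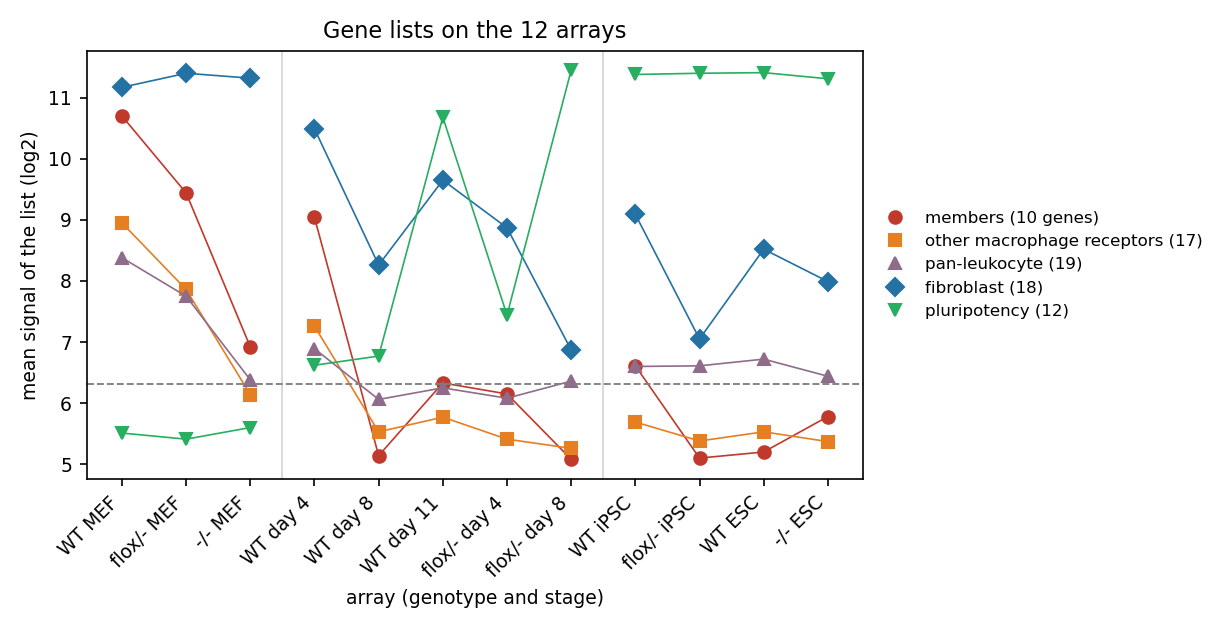
Mean log2 signal (vertical axis) of 5 gene lists on the 12 arrays (horizontal axis, grouped by state), 1 symbol per list and array, with the array median dashed and lines only to guide the eye. On the 3 MEF arrays the macrophage lists step down, from 10.7 to 6.92 for the 10 genes and from 8.95 to 6.14 for other macrophage receptors, while the fibroblast list stays between 11.17 and 11.4.

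Whether the genes move together beyond the differences between states was described by taking each gene's deviation from its mean over the arrays of its state. The Pearson correlation of a gene's 12 deviations with the mean of the other 9 had a median of 0.95, and 9 of the 10 were over 0.8. It was 0.99 for Tyrobp, 0.98 for C1qc, 0.97 for Fcer1g, 0.96 for C1qb and Cd53, 0.95 for Csf1r, 0.94 for C1qa, 0.91 for F13a1, 0.87 for Mrc1 and 0.71 for Lyz2. Among the 13034 other genes the correlation with the mean of the 10 had a median of -0.05, and 214 of them, 1.64%, were over 0.8. The 12 points share arrays, and WT day 4 and -/- MEF lay farthest out. With those 2 arrays left out of the correlation but kept in the state means, the median was 0.91, with 7 of 10 over 0.8. Of the other genes 0.698% were over 0.8, and Mrc1 and F13a1 were at 0.77. The deviations of the arrays left still held a part set by those 2, so these values are not free of them. The genes were chosen for this pattern, so the values carry no p.

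**Figure D4:**
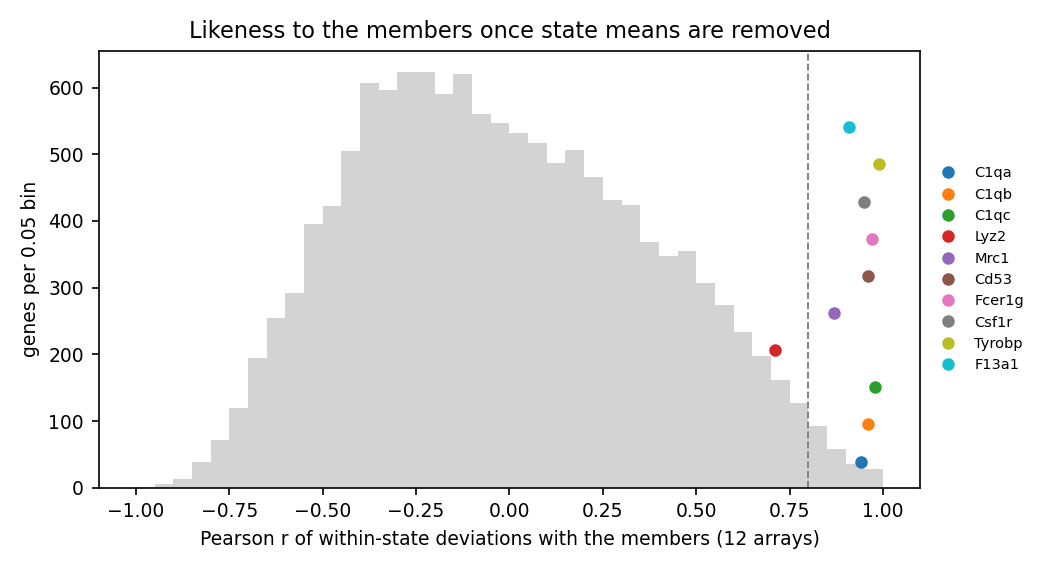
Correlation (horizontal axis) of each gene's deviations from its state means with those of the macrophage genes over 12 arrays; grey bars count the 13034 other genes per bin of 0.05, points mark the 10 genes, whose heights carry no value, and the dashed line is at 0.8. The points of 9 genes lie between 0.87 and 0.99 and Lyz2 lies at 0.71, while the other genes centre near 0.

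Lyz2 was the exception, and its deviations were nearer those of the fibroblast list (0.82) than those of the other macrophage receptors (0.56). For the remaining 9 genes the correlation with the fibroblast list ran from 0.25 in Mrc1 to 0.77 in Cd53, and that with the macrophage receptors from 0.88 in C1qb to 0.99 in C1qa. These 2 comparisons were added after the Lyz2 values had been seen, share the 12 arrays and carry no p. Of the other lists, 13 of 17 macrophage surface receptors, 4 of 10 transcription factors, 6 of 19 pan-leukocyte genes and 4 of 9 adaptor partners were over 0.8 with the 10 genes. No gene of the fibroblast, pluripotency, endothelial, lymphocyte, osteoclast or CSF1R ligand lists was. Below that limit, the fibroblast genes still ran from 0.27 to 0.75 with a median of 0.55. The median was 0.86 for the macrophage surface receptors and 0.48 for the transcription factors, and the endothelial gene Erg was at 0.74. Adgre1 was at 0.98, C3ar1 and C5ar1 were the complement genes over 0.8, Ptprc was at 0.9, Spi1 at 0.84 and Trem2 at 0.81, and Cd68 (0.46), Csf1 (0.25) and Syk (0.1) were lower.

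The genes whose profiles over the 12 arrays lay nearest the mean profile of the 10, by root-mean-square distance after removing each gene's own mean, were Lilr4b (0.24), Mpeg1 (0.32), Lilrb4a (0.33), Adgre1 (0.35), Ccl9 (0.38), Pld4 (0.39), Ms4a7 (0.42), C3ar1 (0.43), Ms4a6c (0.45) and Ccl3 (0.48), in log2 units. The median of all 13034 other genes was 1.89, and the 10 themselves ran from 0.3 in C1qc to 1.54 in Lyz2. Lilr4b and Lilrb4a encode paired immunoglobulin-like receptors of myeloid cells and are close copies, so their probes may read both. Mpeg1, for the pore-forming protein perforin-2 of macrophages, read 9.18, 8.6 and 5.53 in WT, flox/- and -/- MEF and 7.87 in WT day 4, and 4.3 to 5.17 on the 8 remaining arrays.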

How the data were processed

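RNA from 12 mouse cell cultures, 1 per genotype and stage, was hybridised to Affymetrix gene arrays. The deposited values are log2 signals per probe set, as the values themselves show; the labels' protocols do not say how the authors summarised or normalized them, nor with which software. The labels' protocol names a 3′ labelling kit. Because the array medians differed by 0.122, the deposited log2 values were quantile normalized. Of 35512 probe sets, 21789 had 1 gene symbol in the platform annotation, 1621 had several and were not used, and 12102 were not listed; the probe set with the highest mean stood for each of 19938 genes. The 13044 genes above the array median on at least 1 array were tested with limma 3.58.1 (lmFit and eBayes, Benjamini-Hochberg adjustment over all of them, threshold 0.05), fitting only the states compared; the genotype comparison used stage as a block, and genotype as a block in the comparisons of states was tried after seeing the data. The fits were tested on simulated data. The number of arrays limits the precision. The members and gene lists were chosen with earlier results of these data known. Named genes are the 10 members, 14 partner and lineage genes (Csf1, Il34, Trem2, C1ra, C1s1, F13b, Spi1, Ptprc, Adgre1, Cd68, Aif1, Itgam, Syk, Lyz1) and the 10 nearest profiles. From each list, some or all of the 4 called genes with the largest difference are named. Genes named from a list are thus not always its largest differences. Others are named as markers or where a count is 5 or fewer. Lists covered macrophage receptors, transcription factors, oxidase, leukocyte, adaptor, complement, CSF1R ligand, coagulation, lysosomal, cytokine, granulocyte, dendritic, lymphocyte, erythroid, osteoclast, endothelial, fibroblast and pluripotency genes. Protein sequences, and list genes without a probe set of their own, were not analysed here.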

Additional observations from a re-analysis of the deposited data

Results flagged for a closer look

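For several genes 1 array lay far from the others of its state, by the ratio of its gap to the range, taken over 48 groups of arrays. Chance alone would pick about 1 in 20 groups of like samples. The arrays of a state differ in day or genotype, and the 10 genes were chosen on these arrays, so the values are a description. Among the 5 DOX arrays this array was WT day 4 each time: C1qa read 7.89 there against 4.98 to 5.27 on the others, C1qc 9.48 against 5.25 to 6.13, Mrc1 7.6 against 4.64 to 5.43, and F13a1 8.64 against 4.64 to 5.22. Of the genes outside the 10, Adgre1 read 8.18 in WT day 4 against 4.47 to 5.4, and Ptprc 6.26 against 4.8 to 5.13. Among the 4 pluripotent arrays WT iPSC stood apart for C1qb, at 8.05 against 5.09 to 5.6, and for Lyz1, at 6.49 against 5.75 to 5.82. It also did so for C1qa, at 5.55 against 5.09 to 5.13, where all 4 values were under the array median. WT ESC stood apart for Aif1, at 4.69 against 4.4 to 4.42, a gene under the array median on all 12 arrays. The C1s1 signal of all WT DOX arrays was above that of WT MEF, by a mean of 0.85, and that of the flox/- DOX arrays was below flox/- MEF, by -2.81 and -1.96; the difference between the genotypes was not tested.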

How the results depend on the processing

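With 1 array per genotype and stage, a single array can set a state's mean, and the alternatives show where it does. The count of genes called lay between 6449 (without flox/- MEF) and 7762 (without WT ESC) for pluripotent minus MEF, beside 7827 in the main analysis. For DOX minus MEF it was 1768, 3561 with 1 fit of all 12 arrays, 508 with genotype as a block, 3165 without the arrays of the earlier series, and from 150 (without flox/- MEF) to 3165 (without WT day 8) when 1 array was left out. For DOX minus pluripotent it was 1, 19 with 1 fit of all arrays, 0 with genotype as a block, 0 without the arrays of the earlier series, and from 0 to 1315 (without flox/- day 8) when 1 array was left out; for flox/- minus WT it was 0 throughout. The median of the 10 macrophage genes when 1 array was left out ran from -4.43 to -2.32 for pluripotent minus MEF, from -3.68 to -1.58 for DOX minus MEF, from -0.06 to 0.95 for DOX minus pluripotent and from -1.69 to -0.86 for flox/- minus WT, and the median within-state correlation from 0.93 to 0.96. Without WT day 4 the DOX minus pluripotent difference changed sign in 6 genes; leaving out each array in turn it ran from -0.1 to 0.63 in C1qa, -0.08 to 1.08 in C1qc, -0.24 to 1.72 in Lyz2 (-0.16 without flox/- iPSC), -0.13 to 0.6 in Mrc1, -0.04 to 0.94 in Cd53 and -0.27 to 0.9 in Fcer1g. Cd68 changed sign for pluripotent minus MEF without the arrays of the earlier series or WT ESC (-0.21) without -/- MEF (-0.78) and with genotype as a block (-0.11), reaching 0.81 without WT MEF, and for DOX minus MEF without WT MEF (0.53), reaching -1.05 without -/- MEF. Syk changed sign for DOX minus MEF without the earlier series or WT day 8 (-0.05), flox/- MEF (-0.03), -/- MEF (-0.2) and flox/- day 8 (-0.01) and with genotype as a block (-0.24), reaching 0.4 without WT MEF. The cause was not tested. Of the values of single genes under alternatives, 1864 counted as unchanged, 223 no longer passed, 12 newly passed and 18 changed sign. For genes outside the 10, unchanged means the same direction and side of the threshold. For the 10 it means the same direction and a shift smaller than the SD of their mean signal between arrays or stages. In comparisons with MEF that SD was wide, as their mean signal ran from 6.92 to 10.7 over the MEF arrays. Counting as unchanged is therefore a weak check for the 10. Their adjusted p was not used there, so calls that the 10 lost are not among the 223. The labels give no replicate numbers, so none could pair the arrays. Stage was the block in the genotype comparison, and genotype as a block in the comparisons of states was added after seeing the data. In the comparisons with the DOX arrays, none of which was -/-, the genotype block in effect left out the -/- array.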
